A study of Mus musculus with 7 samples.

Results

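The receptors through which cells read TGFβ and BMP ligands are described here in mouse primary articular chondrocytes, the cartilage cells of the joint surface, isolated from the femoral head and treated in culture. The members are 10 genes of 52459 gene names in the deposited count file, found by their gene names: the type I receptors Tgfbr1, Bmpr1a, Bmpr1b, Acvr1 and Acvrl1, the type II receptors Tgfbr2, Bmpr2 and Acvr2a, and the co-receptors Tgfbr3 and Eng. All 10 were found, and 9 had enough counts to be tested (all but Acvrl1). RNA was sequenced in bulk from cells kept for 24 h with TGFβ1 at 5 ng/ml (n = 2, replicates 1 and 3), with BMP2 at 100 ng/ml (n = 3, replicates 1, 2 and 3) or with vehicle (n = 2, replicates 1 and 2). All cells were grown in a medium with fetal bovine serum, and the labels do not say whether serum was present during treatment. The labels give no strain, sex or age for the mice, and do not say whether replicates are separate animals or separate cultures, so the p-values reflect variation among these libraries only, part of which may be technical.

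A TGFβ family ligand brings together a pair of type II receptors and a pair of type I receptors. The type II receptors are always active kinases that phosphorylate the type I receptors, and these in turn phosphorylate SMAD2 and SMAD3 (TGFβ and activin branch) or SMAD1, SMAD5 and SMAD9 (BMP branch). Co-receptors such as betaglycan (Tgfbr3) and endoglin (Eng) bind ligand without a kinase of their own and present it to the signalling receptors. In cartilage both branches are used: TGFβ signalling is known for holding articular chondrocytes in their mature, non-hypertrophic state, and BMP signalling through Bmpr1a and Bmpr1b is needed to form cartilage and drives its hypertrophy.

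Results turn on 4 signalling receptors and both co-receptors, and 3 of these 6 genes are shown with the DNA just before their transcription start, since each changed with a different ligand or in a different direction: Tgfbr1 fell with TGFβ1, Tgfbr2 fell with BMP2 and Eng rose with TGFβ1. The stretches are the 250 bases before the first listed start in RefSeq (build GRCm38.p6), written 5′ to 3′ on the strand of the gene. They lie at chr4:47352972-47353221 (Tgfbr1, plus strand), chr9:116175364-116175613 (Tgfbr2, minus strand) and chr2:32646345-32646594 (Eng, plus strand). Capitals mark the SMAD box CAGAC or its reverse complement GTCTG, the GGCGCC motif and GGAGCC or its reverse complement GGCTCC, the last 2 being motifs of BMP-activated SMADs.
Tgfbr1: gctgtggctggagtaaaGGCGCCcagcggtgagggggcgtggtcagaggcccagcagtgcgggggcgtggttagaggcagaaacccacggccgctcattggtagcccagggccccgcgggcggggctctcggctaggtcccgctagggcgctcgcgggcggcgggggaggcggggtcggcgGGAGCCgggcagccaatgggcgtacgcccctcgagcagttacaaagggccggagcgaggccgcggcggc
Tgfbr2: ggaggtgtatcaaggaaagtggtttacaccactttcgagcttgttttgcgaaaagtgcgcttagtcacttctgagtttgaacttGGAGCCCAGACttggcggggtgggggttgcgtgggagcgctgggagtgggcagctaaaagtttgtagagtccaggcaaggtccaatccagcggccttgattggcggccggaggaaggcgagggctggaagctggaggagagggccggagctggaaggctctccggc
Eng: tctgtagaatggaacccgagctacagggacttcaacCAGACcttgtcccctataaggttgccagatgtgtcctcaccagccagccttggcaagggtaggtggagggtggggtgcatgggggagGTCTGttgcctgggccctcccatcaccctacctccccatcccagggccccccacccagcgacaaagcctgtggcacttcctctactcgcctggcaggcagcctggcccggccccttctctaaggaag
The Tgfbr1 stretch is 74.8% G and C with 29 CpG pairs and holds 1 GGCGCC and 1 GGAGCC, and no CAGAC. RefSeq lists another start for Tgfbr1, with its stretch at chr4:47385966-47386215, which is 52.8% G and C with 3 CpG pairs and holds 1 CAGAC and neither of the other motifs. The Tgfbr2 stretch (58.4% G and C, 12 CpG) holds 1 GGAGCC directly followed by 1 CAGAC. The Eng stretch (62.4% G and C, 4 CpG) holds 2 CAGAC boxes, 1 on each strand. Over all 32851 windows of this length in the table, searched on both strands, 42.2% hold CAGAC, 26% GGAGCC and 9.59% GGCGCC, the median G and C content is 52.4% and the median number of CpG pairs 6. A match says only that these letters occur in the window. Of the 10 members 8 had an entry, with 11 windows in all; Tgfbr3 and Acvrl1 had none.

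The libraries held 18047765 and 16271793 counts with TGFβ1, 10686885, 6747997 and 9796199 with BMP2, and 6885056 and 7387051 with vehicle, of which the 10 receptors took between 2542 and 4289 per library. Levels are CPM, counts scaled to a common effective library size. A gene is said to have risen or fallen where its edgeR p-value, adjusted over all 13367 tested genes, was under 0.05; fold changes are log2 values and carry a standard error (SE). The TGFβ1 libraries differed from the rest by transcript length: where the principal transcript had up to 750 nt the median fold change against vehicle was 2.85 with TGFβ1 and 0.08 with BMP2, and where it had more than 7000 nt it was −0.57 with TGFβ1 and −0.08 with BMP2. Receptor transcripts are long, from 3293 nt (Acvr1) to 12899 nt (Bmpr2), so TGFβ1 results are also given from a fit that removes each library's trend with the length and GC content of transcripts (the length offset), and, where its call or direction differs, from one that uses the deposited gene lengths instead. Treatment and this difference between libraries cannot be told apart. Among the BMP2 libraries, replicate 1 was unlike replicates 2 and 3, with a chi-square per gene of 13.6 and 17.8 against them. Replicates 2 and 3 gave 1.84 between them, so results for the receptors that rose or fell with BMP2 are also given without replicate 1. The TGFβ1 libraries gave 41.8 between them, the largest value within a group, and the vehicle libraries 4.50. This value was not adjusted for depth, and the TGFβ1 libraries were the deepest. With 2 TGFβ1 libraries it cannot be told which of them departs.

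The cells carried the chondrocyte markers: all 8 of that list were tested and their summed level was 32401 and 38336 CPM with TGFβ1, 41914 to 48786 CPM with BMP2, and 47905 and 48231 CPM with vehicle. With TGFβ1 5 of the 8 fell and 0 rose (0 rose and 6 fell with each offset). Over all tested genes 25.8% fell and 30.4% rose (23.6% and 25.4% with the length offset, 25.3% and 26.5% with the deposited lengths). Matn1 fell to 0.126 times and Sox9 to 0.38 times the vehicle level. Col2a1, which makes up most of the sum, did not pass (−0.26, adjusted p = 0.146). With BMP2 1 rose and 1 fell, beside 5.33% and 6.15% of all tested genes. The part of these marker changes in the receptor levels was not tested. Because Eng and Acvrl1 are known above all from endothelial cells, the markers of that type were read beside them. Of 12 endothelial markers, Cdh5 and Cldn5 stood at 0 in all 7 libraries and 3 were tested. Their summed level was 20.7 and 21.3 CPM with TGFβ1, 16.3 to 18.2 CPM with BMP2, and 11.7 and 13.6 CPM with vehicle. Erg, a transcription factor also known from articular cartilage, made most of this, with 17.2 and 17.9 CPM with TGFβ1, 11.5 to 13.5 CPM with BMP2, and 9.76 and 8.61 CPM with vehicle. Without Erg and Egfl7, which were set aside after their values were seen, the sum was 1.62 and 1.60 CPM with TGFβ1, 1.72 to 2.26 CPM with BMP2, and 1.20 and 0.957 CPM with vehicle. Other marker lists moved too. The 6 pericyte markers (3 tested) summed to 407 and 439 CPM with TGFβ1, 317 to 362 CPM with BMP2, and 253 and 238 CPM with vehicle, and the 6 fibroblast markers (3 tested) to 1864 and 1762 CPM, 799 to 862 CPM, and 1683 and 1768 CPM in the same groups. The 8 leukocyte markers (5 tested, Cd3e at 0 in all libraries) lay between 14.3 and 31.5 CPM in every library. The 5 osteoclast markers (2 tested) lay between 89.1 and 141 CPM. Single genes made most of these sums over the libraries: Cspg4 (184 to 334 CPM), Dcn (583 to 1581 CPM), Lyz2 (9.50 to 22.4 CPM) and Ctsk (85.4 to 139 CPM). With TGFβ1 all 3 tested pericyte markers rose, also with each offset, among them Pdgfrb (92.0 and 101 CPM, against 54.3 and 52.5 CPM with vehicle). Of the fibroblast markers 1 rose (Lum, 303 and 368 against 145 and 177 CPM) and 0 fell. Of the leukocyte markers 2 rose and 1 fell (0 and 2 with each offset), and of the osteoclast markers 1 rose and 0 fell (0 and 0). Pericyte markers Rgs5, Abcc9 and Kcnj8, fibroblast markers Pi16 and Thy1, and osteoclast markers Ocstamp, Dcstamp and Mmp9 stood below 1 CPM in every library. A sum thus does not show whether cells of that type were present. In bulk RNA a smaller number of cells of a type and less RNA per cell cannot be told apart. The part of any such cells in the receptor levels was not tested.

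The first question is what TGFβ1 did to its own receptors. The type I receptor gene Tgfbr1, the kinase that phosphorylates SMAD2 and SMAD3, and the co-receptor gene Tgfbr3 fell to 0.514 and 0.535 times their vehicle level in TGFβ1-treated cells, and Eng rose to 1.62 times. The 2 BMP receptor genes Bmpr1a and Bmpr2 fell as well, by less, and not under every way of treating transcript length. In all, 1 of 9 tested members rose and 4 fell, against a background of 56.2% of all tested genes called in this comparison (30.4% rose, 25.8% fell), so the number called is close to that background. The median fold change of the 9 members was −0.47, beside −0.02 over all tested genes and −0.24 over genes with transcripts above 3000 and up to 7000 nt; with the length offset it was 0.03. With the length offset 2 members rose and 2 fell (background 49.0%, of which 25.4% rose and 23.6% fell), and with the deposited lengths 1 rose and 3 fell (background 51.8%, 26.5% rose and 25.3% fell).

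Tgfbr1 (chromosome 4, 47353222 to 47414931, mm10, plus strand) had 18.3 and 22.8 CPM with TGFβ1, against 40.2 and 39.7 CPM with vehicle. Both TGFβ1 libraries lay well below both vehicle libraries, which were nearly equal. The fold change was −0.96 (SE 0.14, adjusted p = 0.000172), and −0.51 with the length offset (adjusted p = 0.00826); Tgfbr1 passed in each of the 15 alternatives run. Its promoter stretch is the G and C rich one shown above.

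Tgfbr2 (chromosome 9, 116084293 to 116175360, minus strand), the type II receptor that binds TGFβ first, had 80.0 and 103 CPM with TGFβ1, against 110 and 111 CPM with vehicle. The groups did not overlap, but TGFβ1 replicate 3 lay near the vehicle level. The fold change of −0.27 (SE 0.17, 95% confidence interval −0.63 to 0.10) did not pass (adjusted p = 0.19); it was −0.30 with the length offset and −0.04 with the deposited lengths, and passed with neither. It passed only without TGFβ1 replicate 3, at −0.46 (adjusted p = 0.0490).

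Tgfbr3 (chromosome 5, 107106570 to 107289629, minus strand) encodes betaglycan, which helps TGFβ2 to reach its receptors and also binds inhibin. It had 14.4 and 19.0 CPM with TGFβ1, against 32.0 and 30.5 CPM with vehicle. The TGFβ1 libraries were the lower ones, and they differed from each other more than the vehicle libraries did. The fold change was −0.90 (SE 0.16, adjusted p = 0.000698) and −0.52 with the length offset (adjusted p = 0.0104), and it passed in all 15 alternatives. The gene shares 4.54% of its exon bases with Gm43422 on the same strand, which stood below 1 CPM in every library.

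Eng (chromosome 2, 32646595 to 32682669, plus strand), which encodes endoglin, had 28.8 and 28.6 CPM with TGFβ1, against 17.8 and 17.7 CPM with vehicle. By these scaled levels the libraries were almost equal within each group, and the groups lay far apart. Eng rose by 0.70 (SE 0.16, adjusted p = 0.0036) and 0.55 with the length offset (adjusted p = 0.0183). It passed in all 15 alternatives, each of which used scaling factors of the kind given above. Of its exon bases 1.51% lie opposite Fpgs, which had 20.4 ± 2.01 CPM with TGFβ1 (SD, n = 2) and 11.8 ± 2.09 CPM with vehicle (n = 2); no source used here gives the strand setting, and the part of Fpgs reads in the Eng counts was not tested. The endothelial marker sum was also higher with TGFβ1, mainly through Erg, with a fold change of 0.93 (adjusted p = 0.000573). The endothelial marker Pecam1, at 0.294 and 0.458 CPM with TGFβ1 and 0 with vehicle, rose as well.

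Among the BMP type I receptors, Bmpr1a (chromosome 14, 34410734 to 34503341, minus strand), also called ALK3, had 73.3 and 79.1 CPM with TGFβ1, against 101 and 111 CPM with vehicle. The fold change was −0.48 (SE 0.12, adjusted p = 0.00607), and −0.03 with the length offset, where it did not pass, but −0.33 with the deposited lengths, where it did (adjusted p = 0.0342). It did not pass without vehicle replicate 2 (−0.41, adjusted p = 0.0646). Bmpr1b (chromosome 3, 141837136 to 142169425, minus strand), also called ALK6 and known from early cartilage, was the lowest of the tested members, with 4.19 and 4.58 CPM with TGFβ1, against 3.34 and 3.35 CPM with vehicle. Here the TGFβ1 libraries were the higher ones. Its fold change of 0.39 (SE 0.24) did not pass (adjusted p = 0.186), passed with the length offset at 0.76 (adjusted p = 0.0198) and did not pass with the deposited lengths at 0.51 (adjusted p = 0.0951). Acvr1 (chromosome 2, 58388644 to 58567157, minus strand), or ALK2, the receptor mutated in the ossifying disease fibrodysplasia ossificans progressiva, had 29.2 and 30.8 CPM with TGFβ1, against 30.2 and 30.6 CPM with vehicle. Its groups overlapped, and the fold change was −0.02 (confidence interval −0.38 to 0.34), with 0.11 under the length offset and 0.05 under the deposited lengths, neither passing.

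Bmpr2 (chromosome 1, 59763400 to 59879014, plus strand), the type II receptor of BMPs, had 28.0 and 30.6 CPM with TGFβ1, against 45.2 and 36.1 CPM with vehicle. The groups did not overlap, and the vehicle libraries differed from each other. The fold change of −0.47 (SE 0.15, adjusted p = 0.0195) changed direction with both offsets, to 0.24 with the length offset and 0.115 with the deposited lengths, neither of which passed. Bmpr2 has the longest transcript of the members and was called in 9 of 15 alternatives, so its fall depends on how transcript length is treated. It did not pass without TGFβ1 replicate 1 (−0.40) or without vehicle replicate 1 (−0.35) either.

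Acvr2a (chromosome 2, 48814109 to 48903269, plus strand), a type II receptor of activins that BMPs also use, had 6.92 and 8.32 CPM with TGFβ1, against 11.6 and 9.45 CPM with vehicle. The fold change, −0.47 (SE 0.20), did not pass (adjusted p = 0.0675), was 0.03 with the length offset and −0.36 with the deposited lengths, and passed only without BMP2 replicate 1. Of its exon bases 7.84% lie opposite Orc4, which had 16.5 ± 3.45 CPM with TGFβ1 (SD, n = 2) and 27.7 ± 1.57 CPM with vehicle (n = 2), and the strand setting is not given. Acvrl1 (chromosome 15, 101128522 to 101145336, plus strand), or ALK1, the type I partner of endoglin in endothelium, had 7 and 5 counts with TGFβ1, against 4 and 2 counts with vehicle. Its summed level was 0.45 CPM with TGFβ1 (exact Poisson 95% interval 0.232 to 0.785, counting error only) and 0.379 CPM with vehicle (0.139 to 0.825), so no difference was detectable at this depth.

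**Figure D1:**
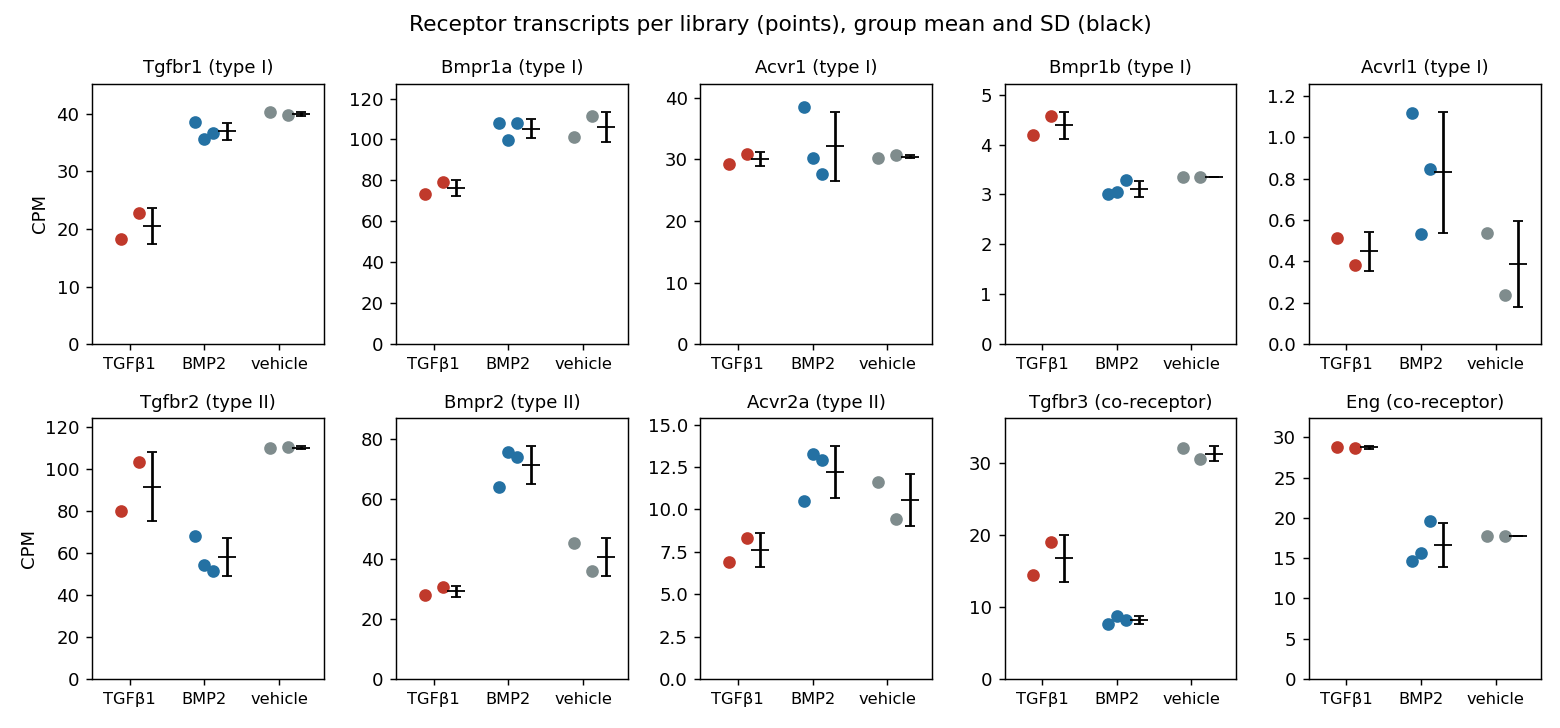
CPM of each receptor gene (vertical axes, one panel per gene, each from 0) in the TGFβ1, BMP2 and vehicle libraries; points are libraries, and black marks with bars the group mean ± SD. Tgfbr1 at 18.3 and 22.8 CPM with TGFβ1 lies below all other libraries, Tgfbr3 is lowest with BMP2 (7.63 to 8.75 CPM), Bmpr2 is highest with BMP2 (64.2 to 75.8 CPM), and Acvr1 shows no separation of the groups.

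The second question is what BMP2 did to the same genes. With BMP2 the 2 TGFβ-binding genes Tgfbr2 and Tgfbr3 fell, and Bmpr2, the type II receptor of its own branch, rose, while no type I receptor passed the test. That makes 1 rise and 2 falls among 9 tested members, against a background of 11.5% of all tested genes called in this comparison (5.33% rose, 6.15% fell). The median fold change of the members was −0.09, beside 0 over all tested genes. These 3 genes kept their calls with both offsets and without BMP2 replicate 1; the background was 13.0% with the length offset (6.76% rose, 6.26% fell) and 12.2% with the deposited lengths (6.31% rose, 5.89% fell).

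Tgfbr3 had 7.63, 8.75 and 8.18 CPM with BMP2, against 32.0 and 30.5 CPM with vehicle. All BMP2 libraries lay far below both vehicle libraries, and the fitted level was 0.261 times that of vehicle, the largest change of any tested member in either comparison with vehicle. BMP2 gave a fold change of −1.94 (SE 0.15, adjusted p = 5.11e-05, 95% confidence interval −2.27 to −1.60), and −1.89 without BMP2 replicate 1.

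Tgfbr2 had 68.4, 54.2 and 51.4 CPM with BMP2, against 110 and 111 CPM with vehicle. BMP2 replicate 1 was the highest of the 3, and all 3 lay far below the vehicle libraries. The difference from vehicle was −0.93 (SE 0.15, adjusted p = 0.00301), and −1.06 without BMP2 replicate 1. Both Tgfbr2 and Tgfbr3 passed in all 15 alternatives. The Tgfbr2 stretch shown above is the one with the adjoining GGAGCC and CAGAC letters. GGAGCC or GGCGCC also occurs in windows of Tgfbr1, Acvr1, Bmpr1a and Bmpr1b, which did not pass with BMP2. It occurs too in that of Bmpr2, which rose, and in neither that of Eng nor that of Acvr2a. The part of these letters in the changes was not tested.

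Bmpr2 had 64.2, 75.8 and 74.0 CPM with BMP2, against 45.2 and 36.1 CPM with vehicle. All BMP2 libraries were above both vehicle libraries. BMP2 gave a rise of 0.81 (SE 0.14, adjusted p = 0.00347), and 0.88 without BMP2 replicate 1 and with the length offset alike. It lost its call only without vehicle replicate 2, at 0.66 (adjusted p = 0.07).

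The other members did not pass. Tgfbr1 had 38.6, 35.7 and 36.6 CPM with BMP2, against 40.2 and 39.7 CPM with vehicle, a fold change of −0.11 (95% confidence interval −0.38 to 0.16). Bmpr1a had 108, 99.8 and 108 CPM with BMP2, against 101 and 111 CPM with vehicle, a fold change of −0.01 (−0.26 to 0.23). For both genes the interval spans 0. Bmpr1b had 3.00, 3.05 and 3.29 CPM with BMP2, against 3.34 and 3.35 CPM with vehicle (−0.10, interval −0.62 to 0.42). Acvr1 had 38.4, 30.2 and 27.6 CPM with BMP2, against 30.2 and 30.6 CPM with vehicle (0.08, −0.25 to 0.41), with BMP2 replicate 1 as the highest library. With 1 library left out the fold change of Acvr1 went down to −0.08, so its sign depends on the libraries used. Acvr2a had 10.5, 13.3 and 12.9 CPM with BMP2, against 11.6 and 9.45 CPM with vehicle (0.21, −0.19 to 0.61). Eng, which had risen with TGFβ1, had 14.6, 15.6 and 19.7 CPM with BMP2, against 17.8 and 17.7 CPM with vehicle (−0.09, −0.43 to 0.24), with overlapping groups. Acvrl1 had 13, 4 and 9 counts with BMP2, a summed level of 0.872 CPM (exact Poisson 95% interval 0.569 to 1.28) that overlaps the interval for vehicle. In a fit of all genes without the filter on low counts its fold change of 1.16 did not pass (adjusted p = 0.55).

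**Figure D2:**
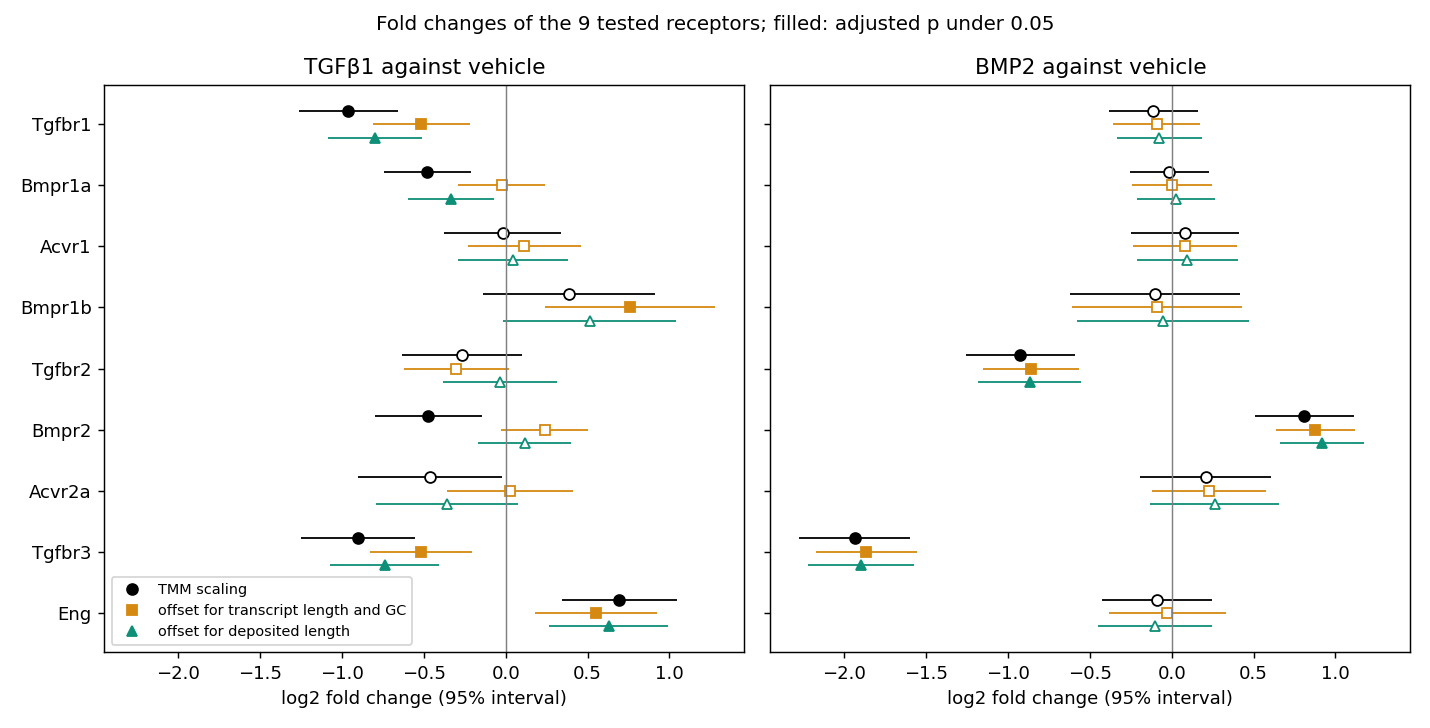
Log2 fold changes of the 9 tested receptors with 95% confidence intervals in both comparisons with vehicle, filled where the adjusted p was under 0.05, from the fit without an offset, with the length offset and with the offset from the deposited lengths. The Tgfbr1 and Tgfbr3 points of TGFβ1 against vehicle move from −0.96 and −0.90 to −0.51 and −0.52 with the offset and Bmpr2 crosses 0, while for BMP2 against vehicle the fits give nearly the same values.

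The third comparison sets the ligands against each other, 100 ng/ml of BMP2 against 5 ng/ml of TGFβ1. With BMP2, Bmpr2, Tgfbr1, Acvr2a and Bmpr1a were higher than with TGFβ1, and Tgfbr3, Eng and Tgfbr2 were lower. That is 4 rises and 3 falls among 9 tested members, against a background of 61.4% of all tested genes called (28.1% rose, 33.3% fell), again near the background. With the length offset 2 rose and 4 fell (background 55.7%, 27.4% rose and 28.3% fell), and with the deposited lengths 4 rose and 4 fell (background 58.9%, 29.3% rose and 29.6% fell). This comparison shares its libraries with the others, so its values are not separate evidence. Bmpr2 had a fold change of 1.28 (SE 0.14, adjusted p = 1.58e-05), the widest difference without an offset, and 0.64 with the length offset, where Tgfbr3 differed more (−1.35). Its 3 BMP2 libraries all had more than 60 CPM and both TGFβ1 libraries about 30 CPM.

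For Tgfbr1 the difference was 0.85 (SE 0.13, adjusted p = 0.000178), and 0.42 with the length offset (adjusted p = 0.0127). For Tgfbr2 it was −0.66 (SE 0.15, adjusted p = 0.00309) and −0.56 with the offset, so Tgfbr1 was lower with TGFβ1 and Tgfbr2 lower with BMP2. Both co-receptors were lower with BMP2, Tgfbr3 by −1.03 (SE 0.15, adjusted p = 0.000193) and Eng by −0.79 (SE 0.14, adjusted p = 0.000635); with the offset the values were −1.35 and −0.58. Bmpr1a (0.47, SE 0.11) and Acvr2a (0.67, SE 0.18) passed without an offset and with the deposited lengths (0.36 and 0.62), and with the length offset were 0.03 and 0.20 and did not pass; Acvr2a also did not pass without TGFβ1 replicate 1 (0.54). Bmpr1b (−0.49, SE 0.21, adjusted p = 0.0615) missed the threshold, and passed with the length offset at −0.85 (adjusted p = 0.00443) and with the deposited lengths at −0.56 (adjusted p = 0.038). Acvr1 (0.10, 95% confidence interval −0.22 to 0.42) was not shown to differ.

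**Figure D3:**
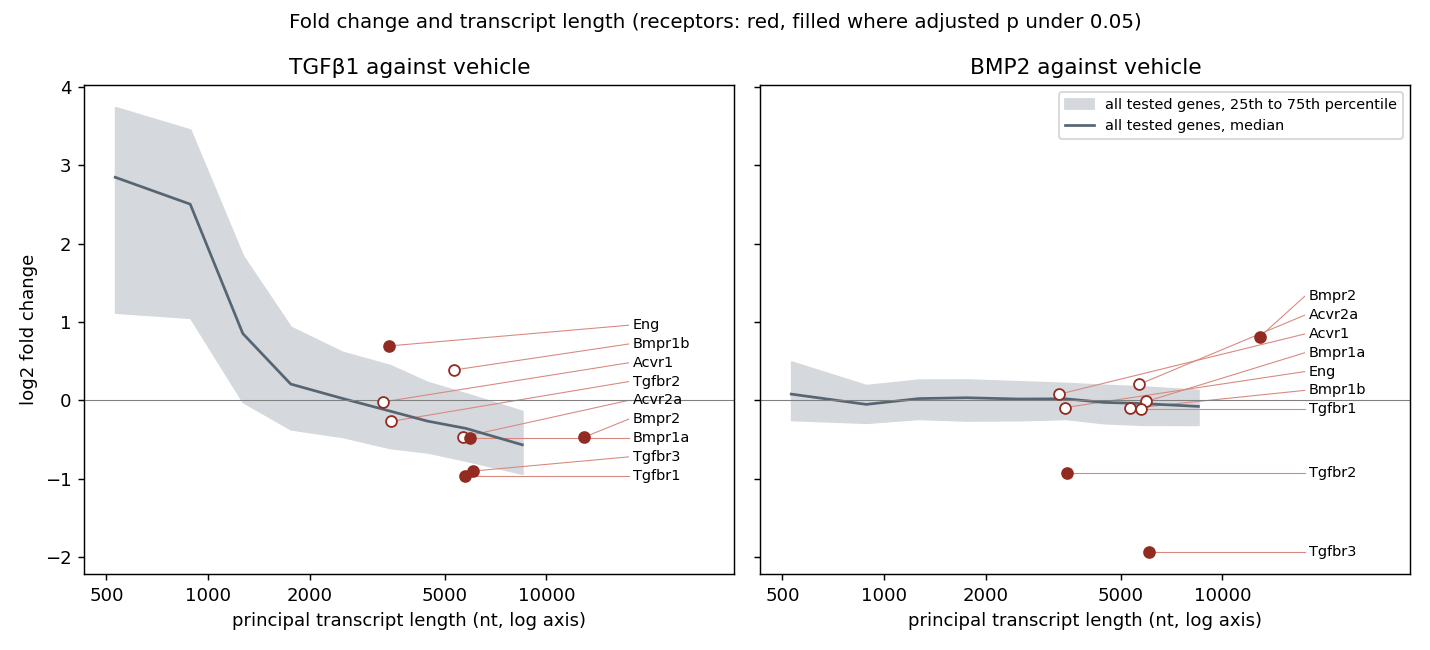
Log2 fold change against the length of the principal transcript (log axis, nt) for TGFβ1 against vehicle and BMP2 against vehicle; the line and band are the median and the 25th to 75th percentiles of all tested genes, and red points the receptors, filled where the adjusted p was under 0.05. With TGFβ1 the median falls from 2.85 to −0.57 as transcripts lengthen and Tgfbr1 and Tgfbr3 lie below the band and Eng and Bmpr1b above it, while with BMP2 the band is flat, with Tgfbr2 and Tgfbr3 far below it and Bmpr2, longer than the range the band covers, at 0.81.

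To compare the receptors with each other, CPM were divided by the deposited gene length, which equals the summed exons of the annotation for 10 of 10 members, and values below are CPM per kb. In vehicle cells Bmpr1a was the highest at 16.7 ± 1.16 (SD, n = 2), followed by Tgfbr2 at 13.5 ± 0.0728, Acvr1 at 6.30 ± 0.0586, Tgfbr1 at 6.12 ± 0.0583, Tgfbr3 at 4.77 ± 0.158 and Eng at 4.38 ± 0.0143. Bmpr2 at 2.26 ± 0.357 and Acvr2a at 1.85 ± 0.272 came next with overlapping ranges, then Bmpr1b at 0.561 ± 0.00073 and Acvrl1 at 0.0908 ± 0.049. By this measure Bmpr1a in vehicle cells lay at percentile 87.2 of all tested genes and Bmpr1b at percentile 15.3. With the shorter principal transcript as the length the order at the top turned round, since the principal transcript of Tgfbr2 (3476 nt) is far shorter than its deposited length (8187 nt). Tgfbr2 then had 26.4 ± 4.72 with TGFβ1, 16.7 ± 2.61 with BMP2 and 31.7 ± 0.172 with vehicle, and Bmpr1a 12.8 ± 0.683, 17.7 ± 0.787 and 17.8 ± 1.23 in the same groups, so that their ranges overlapped with BMP2. The ranges of Eng and Tgfbr3 also overlapped in vehicle cells by that length (means 5.19 and 5.13). The orders that follow are by the deposited length. With TGFβ1, Bmpr1a (12.0 ± 0.641, n = 2) and Tgfbr2 (11.2 ± 2.00) had overlapping ranges at the top and Eng (7.10 ± 0.0359) came next, and Tgfbr1 (3.14 ± 0.48) and Tgfbr3 (2.55 ± 0.496) overlapped. With BMP2, Bmpr1a (16.6 ± 0.738, n = 3) was highest, and Tgfbr2 (7.09 ± 1.11), Acvr1 (6.64 ± 1.17) and Tgfbr1 (5.66 ± 0.23) could not be ordered beyond their spread, nor could Eng (4.11 ± 0.661) and Bmpr2 (3.97 ± 0.349). Tgfbr3 (1.25 ± 0.0852) ranked below Acvr2a (2.15 ± 0.267) with BMP2, whereas it ranked above Acvr2a with TGFβ1 and with vehicle.

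Summed by role, the 5 type I receptors had 22.2 ± 1.39 CPM per kb with TGFβ1, 29.6 ± 1.82 with BMP2 and 29.8 ± 1.11 with vehicle (SD, n = 2, 3 and 2). The 3 type II receptors had 14.2 ± 2.28 with TGFβ1, 13.2 ± 0.547 with BMP2 and 17.6 ± 0.556 with vehicle, and both co-receptors together 9.65 ± 0.46 with TGFβ1, 5.36 ± 0.682 with BMP2 and 9.15 ± 0.172 with vehicle. The co-receptor sum with TGFβ1 thus stayed near that of vehicle although its make-up differed. With the length offset the type I sums were 26.7, 27.8 and 27.7 CPM per kb with TGFβ1, BMP2 and vehicle, so the lower type I sum with TGFβ1 depends on how length is treated. These sums and the shares below are given with no test.

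Within the type II sum, Bmpr2 held 11.6% ± 1.13 with TGFβ1 (n = 2), 30.1% ± 3.66 with BMP2 (n = 3) and 12.8% ± 1.62 with vehicle (n = 2). Counted per library, there were 0.159 and 0.135 Bmpr2 for each Tgfbr2 with TGFβ1, 0.427, 0.637 and 0.655 with BMP2, and 0.187 and 0.148 with vehicle, all per kb. The BMP2 libraries did not overlap with the others, and BMP2 replicate 1 was the lowest of its group. Within the type I sum Bmpr1a held 54.1% ± 0.486 with TGFβ1, 56.1% ± 2.41 with BMP2 and 56.1% ± 1.79 with vehicle, and Tgfbr1 held 14.1% ± 1.28, 19.1% ± 0.393 and 20.5% ± 0.96 in the same groups. Of the co-receptor sum Tgfbr3 held 26.4% ± 3.88 with TGFβ1, 23.5% ± 2.73 with BMP2 and 52.1% ± 0.742 with vehicle. The ratio of Eng to Tgfbr3 was therefore above 1 with each ligand, at 2.83 ± 0.565 with TGFβ1 and 3.29 ± 0.526 with BMP2, and 0.919 ± 0.0273 with vehicle. It shifted through both genes with TGFβ1 and through Tgfbr3 with BMP2.

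**Figure D4:**
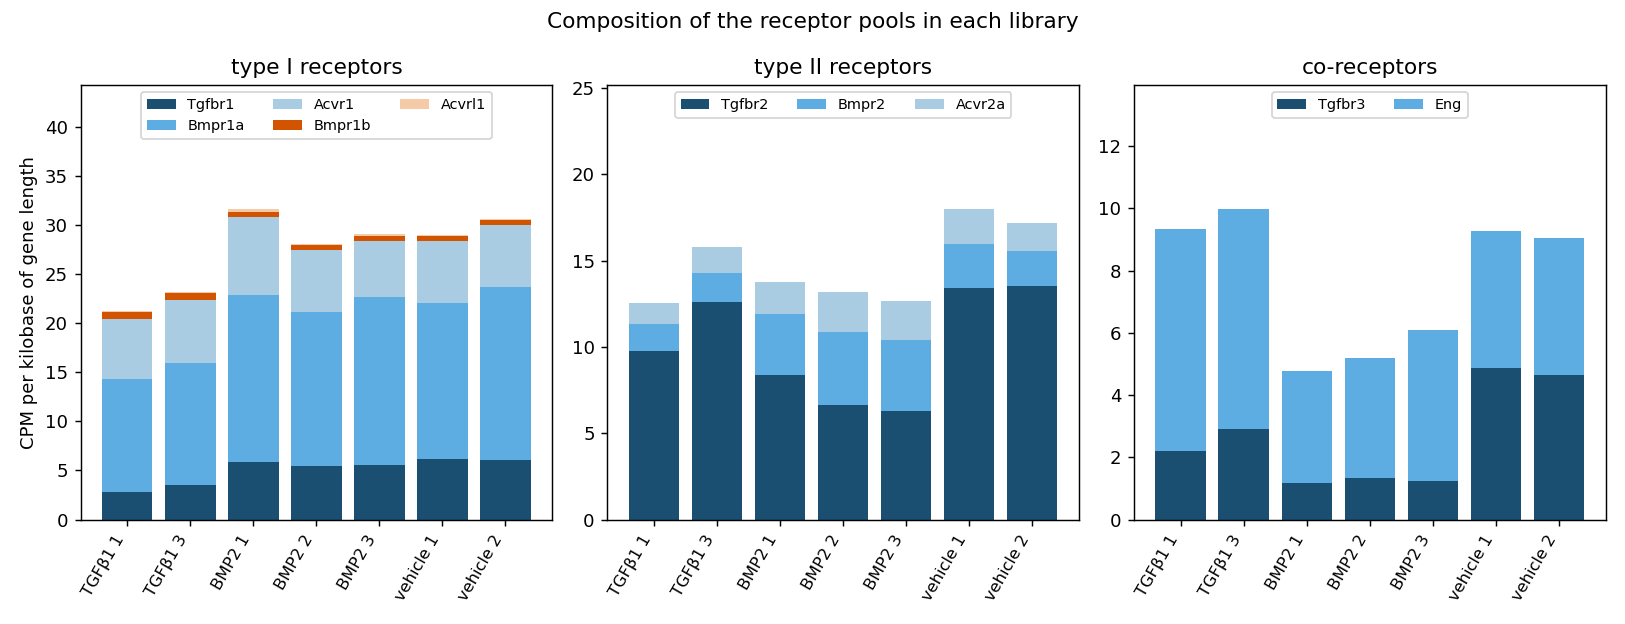
Summed level of the type I receptors, type II receptors and co-receptors in each library (stacked bars, CPM per kb of gene length), with a colour for each gene and the TGFβ1 libraries first, then BMP2 and vehicle. Bmpr2 takes 30.1% of the type II sum with BMP2 beside 11.6% with TGFβ1 and 12.8% with vehicle, and Tgfbr3 takes 52.1% of the co-receptor sum with vehicle beside 26.4% and 23.5% with TGFβ1 and BMP2.

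Other genes that act at the receptors were counted by lists. The counts are read against the same backgrounds as above: 30.4% of all tested genes rose and 25.8% fell with TGFβ1, 5.33% rose and 6.15% fell with BMP2, and 28.1% rose and 33.3% fell in BMP2 against TGFβ1. Changes of named genes that did not pass with the length offset are marked. Of 5 other receptors of the family 3 were tested. Bambi, a receptor without a kinase that blocks signalling as a decoy, had 11.1 and 7.86 CPM with TGFβ1, 103, 94.9 and 92.8 CPM with BMP2, and 30.0 and 37.7 CPM with vehicle. Its fold change was −1.83 (SE 0.18) with TGFβ1 and 1.52 (SE 0.16) with BMP2, both past the threshold, and 3.35 between BMP2 and TGFβ1. Amhr2, the type II receptor of anti-Müllerian hormone, was the only one of these called as rising with TGFβ1, with 5.30 and 2.67 CPM against 0.802 and 0.12 CPM with vehicle, and it was chosen after its values were seen. Acvr1b fell in BMP2 against TGFβ1 (−0.52, adjusted p = 0.0451), a call lost in 11 of 15 alternatives.

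Among 7 tested other co-receptors 0 rose and 4 fell with TGFβ1, and 2 rose and 2 fell with BMP2; in BMP2 against TGFβ1 4 rose and 1 fell. With TGFβ1 the falls were 2 with the length offset and 3 with the deposited lengths, and with BMP2 3 rose with either. Cd109, which binds TGFβ and lowers its signalling, had 52.3 and 56.3 CPM with TGFβ1, 144, 122 and 132 CPM with BMP2, and 134 and 137 CPM with vehicle, and fell by 1.31 on the log2 scale with TGFβ1. Nrp2, a neuropilin, had 142 and 149 CPM with TGFβ1, 31.6, 34.7 and 36.3 CPM with BMP2, and 185 and 170 CPM with vehicle, with a fold change of −2.38 (SE 0.11) for BMP2 against vehicle. Of the BMP co-receptor Rgma and its receptor Neo1, Rgma fell with both ligands (−0.52 with TGFβ1 and −0.58 with BMP2), and its fall with BMP2 was no longer called without vehicle replicate 1 or without vehicle replicate 2. Neo1 fell with TGFβ1 (−0.49; −0.04 with the length offset, not passed, nor without vehicle replicate 2) and rose with BMP2 (0.53), a call lost without any 1 of vehicle replicate 1, vehicle replicate 2 and BMP2 replicate 3.

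Of 14 inhibitors and partners of the receptors, 5 rose and 5 fell with TGFβ1, and 6 rose and 0 fell with BMP2. In BMP2 against TGFβ1 6 rose and 3 fell. With each offset 4 rose and 4 fell with TGFβ1. Pmepa1, which restrains TGFβ signalling, had 703 and 771 CPM with TGFβ1, 81.9, 77.3 and 82.5 CPM with BMP2, and 22.5 and 22.6 CPM with vehicle. The inhibitory Smad7, which leads ubiquitin ligases to type I receptors, had 25.5 and 26.3 CPM with TGFβ1, 72.7, 78.1 and 87.6 CPM with BMP2, and 16.7 and 15.1 CPM with vehicle. Smad6, which acts mainly on the BMP branch, had 13.7 and 14.0 CPM with TGFβ1, 60.4, 58.6 and 60.9 CPM with BMP2, and 26.7 and 24.2 CPM with vehicle. These 3 rose with BMP2 by 1.84, 2.32 and 1.24. Usp15, a deubiquitinase that acts on the TGFβ receptor complex, rose with TGFβ1 (1.09, SE 0.11), and the ubiquitin ligase gene Nedd4l fell (−1.17, SE 0.16).

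Of 6 SMAD effectors, the proteins that type I receptors phosphorylate and their partner Smad4, 0 rose and 5 fell with TGFβ1, with 3 falls under the length offset and 4 under the deposited lengths. With BMP2 1 rose and 1 fell (1 and 0 with each offset), and in BMP2 against TGFβ1 4 rose and 0 fell. Smad9 of the BMP branch had 3.53 and 3.74 CPM with TGFβ1, 33.0, 35.8 and 37.0 CPM with BMP2, and 26.5 and 19.5 CPM with vehicle, a fold change of −2.65 (SE 0.19) for TGFβ1 against vehicle. Its rise with BMP2 (0.62) was lost without vehicle replicate 2 (0.41), BMP2 replicate 2 or BMP2 replicate 3, and the fall of Smad3 (−0.45) in 9 of 15 alternatives, among them both offsets and DESeq2. Smad1 and Smad4 fell with TGFβ1 by 0.78 and 0.68 on the log2 scale.

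Proteases can release betaglycan and endoglin from the cell surface. Of 3 such genes, 1 rose and 1 fell with TGFβ1, 0 rose and 1 fell with BMP2, and 1 rose and 1 fell in BMP2 against TGFβ1; with each offset the fall with TGFβ1 and that rise were not called. Mmp14, a membrane-bound metalloproteinase, had 148 and 159 CPM with TGFβ1, 41.4, 39.1 and 38.7 CPM with BMP2, and 61.9 and 58.5 CPM with vehicle. Its fold change was 1.35 (SE 0.12) with TGFβ1, and −0.60 (SE 0.11) with BMP2, which was lost without vehicle replicate 1. Mmp16 fell with TGFβ1 (−0.43), a call lost in 7 of 15 alternatives and with both offsets, and its rise in BMP2 against TGFβ1 (0.35) was −0.0075 with the length offset.

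Of 18 ligands 12 were tested, of which 4 rose and 4 fell with TGFβ1, 0 rose and 3 fell with BMP2, and 3 rose and 5 fell in BMP2 against TGFβ1. With each offset 1 rose and 3 fell with BMP2, and with the deposited lengths 3 rose and 4 fell in BMP2 against TGFβ1. Inhba, the activin A subunit, had 159 and 148 CPM with TGFβ1, 10.1, 15.4 and 15.9 CPM with BMP2, and 9.09 and 8.25 CPM with vehicle, a fold change of 4.15 (SE 0.21) for TGFβ1. Tgfb2, the TGFβ isoform that depends most on betaglycan, had 57.6 and 56.7 CPM with TGFβ1, 58.8, 72.1 and 78.5 CPM with BMP2, and 147 and 146 CPM with vehicle. It fell with both ligands, with fold changes of −1.36 (SE 0.15) for TGFβ1 and −1.07 (SE 0.13) for BMP2, as Tgfbr3 did. Bmp7 rose with TGFβ1 (2.05, SE 0.17), Tgfb3 fell with BMP2 (−0.75), a call lost without vehicle replicate 1, vehicle replicate 2 or BMP2 replicate 3, and Gdf5 was lower with BMP2 than with TGFβ1 (−4.75).

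The members with the widest range of group means were Tgfbr3 (1.92 on the log2 scale) and Bmpr2 (1.28). For each, the 3 genes with the most similar profile were taken by the smallest root mean square difference of centred log2 CPM over the 7 libraries, among 10166 candidates. For Tgfbr3 these included Abi3bp (0.155) and Dab2 (0.197). Abi3bp, a matrix protein gene, had 102 and 114 CPM with TGFβ1, 53.7, 62.4 and 60.8 CPM with BMP2, and 183 and 170 CPM with vehicle, the same order of the groups as Tgfbr3. For Bmpr2 they were Stim2 (0.104), Ammecr1 (0.118) and Scd2 (0.126). Stim2, a sensor of calcium in the endoplasmic reticulum, had 23.0 and 29.2 CPM with TGFβ1, 62.4, 64.3 and 64.6 CPM with BMP2, and 37.4 and 35.5 CPM with vehicle. The profiles share the same libraries and are given as a description.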

How the data were processed

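Bulk RNA was sequenced in 7 libraries labelled TGFb, BMP2 or Vehicle. The authors deposited raw counts per gene name and library with a gene length; the submitters' processing notes name the mm10 build and the tools STAR 2.4.2a, featureCounts, Subread, DESeq2 and cutadapt, without saying what each was used for. No source used here gives the strand setting or the treatment of reads that map to several places.

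Counts were fitted with edgeR 4.0.16 (R 4.3.3): filterByExpr (13367 genes), TMM, 1 quasi-likelihood fit over all 7 libraries with a coefficient per group and 4 residual degrees of freedom, 2-sided tests adjusted by Benjamini-Hochberg over the tested genes, with calls at 0.05. The common coefficient of biological variation was 0.133. The script was tested on simulated counts: for TGFβ1 against vehicle it recovered 82.1% of genes changed by 1 on the log2 scale and 11.9% of those changed by 0.5 (13062 genes tested), and for BMP2 against vehicle 83.6% and 11.9% (12993 genes). The simulation changed only 67 genes at each of these sizes and gave all genes the same spread. In the data 56.2% of tested genes were called with TGFβ1 and 11.5% with BMP2. The adjustment depends on how many genes change, so these shares do not give the recovery in the data. Changes of the smaller size may still go unseen.

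Gene names were matched to GENCODE M21 for positions, overlapping exons, and transcript length and GC content (98.96% of tested genes). The length offset is a per-library lowess trend of log2 CPM on transcript length (span 0.15), then on GC content (span 0.3). The 15 alternatives also include DESeq2 1.42.0, DESeq2 size factors, no low-count filter, the replicate block and each library left out; where that leaves 1 library in a group, it is assumed to vary like the others.

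Members, gene lists and length offsets were chosen with earlier results of these data known. From each pathway list up to 3 called genes per comparison with the smallest p and a mean log2 CPM of at least 2 may be named, and for the 2 members of widest range the 3 most similar genes, of which 1 is not reported here; Amhr2 is outside this rule.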

Additional observations from a re-analysis of the deposited data

How the results depend on the processing

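Of 15 alternatives, the calls of Tgfbr1, Tgfbr3 and Eng with TGFβ1, and of Tgfbr2 and Tgfbr3 with BMP2, kept direction and side of the threshold in all. Bmpr2 in TGFβ1 against vehicle reversed to 0.24 with the length offset and 0.115 with the deposited lengths, and Mmp16 in BMP2 against TGFβ1 to −0.0075 with the length offset; both offsets remove trends with length by construction. Restricting the fit to transcripts of at least 2000 nt tested fewer genes and called 4734 for TGFβ1 against vehicle (7517 over all transcripts) and 5361 for BMP2 against TGFβ1 (8206). Leaving out 1 library, the count for BMP2 against vehicle (1535) ranged from 557 without vehicle replicate 2 to 1698 without TGFβ1 replicate 1, with 671 without vehicle replicate 1 and 981 without BMP2 replicate 3.

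With principal transcript lengths in place of the deposited ones, Tgfbr2 ranked above Bmpr1a with TGFβ1 and with vehicle, Bmpr2 held 7.64%, 22.9% and 8.57% of the type II sum with TGFβ1, BMP2 and vehicle, Tgfbr1 18.6% of the type I sum with BMP2 and Tgfbr3 49.7% of the co-receptor sum with vehicle. With the length offset Bmpr2 held 15.4% of the type II sum with TGFβ1, and Tgfbr3 31.8% of the co-receptor sum with TGFβ1 and 49.6% with vehicle.

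Deviations of same-numbered libraries from their group means had correlations between −0.139 and −0.0009. With 2 libraries in a group the deviations mirror each other, so these values cannot show whether the numbers pair samples. The numbers were not taken to pair samples because the labels do not say so. A replicate block gave 771 genes for BMP2 against vehicle and Bmpr2 at −0.53 for TGFβ1 against vehicle (adjusted p = 0.0578); all other calls of the receptors were kept under the block. With 2 or 3 libraries a group, depth limits Acvrl1 most, with 2 to 13 counts per library.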
